A study of Mus musculus with 2 samples.

Results

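The B cell receptor and coreceptor genes described here are *Ighm*, *Ighd*, *Cd79a*, *Cd79b*, *Cr2*, *Cd22*, *Fcer2a*, *Ms4a1* and *Bank1*, which are 9 of the 55386 features counted in the adventitia of the mouse aorta. They were picked by symbol and not by measured level. Cells positive for CD45, the surface marker of leukocytes, came from *Rank*-Cre *Rosa26*-eYFP mice aged 16 weeks, in which Cre recombinase made from the *Rank* (*Tnfrsf11a*) gene switches on a yellow fluorescent reporter. All animals carried both alleles. In the steady-state group 3 untreated animals were pooled into 1 droplet library, and in the AngII group 2 animals that received angiotensin II at 1.8 µg/kg/min for 10 days from an osmotic pump were pooled into another. Condition, library and animals therefore cannot be told apart, no test between conditions was possible, and the 95% intervals given throughout cover counting error only.

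The B cell receptor is a membrane immunoglobulin that binds antigen, held by a heterodimer that carries the signal into the cell. Naive B cells place IgM and IgD on their surface by alternative processing of 1 heavy chain transcript. Coreceptors raise or lower the response to antigen, and B cells of the arterial adventitia are known as part of the local immune population.

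Promoter sequences were at hand in RefSeq (GRCm38.p6) for 5 of the 9 genes, in 7 windows of 300 bases. They are shown for 3 genes that lie on both sides of the main contrast described further on, *Cd79a* and *Cd22*, which had 0 and 1 UMIs in C1q-gated barcodes at steady state, and *Bank1*, which had 176. Capitals mark matches, on either strand, to the E-box CAGGTG, the Ets/PU.1 core GAGGAA, the EBF core TCCCNNGGG or the octamer ATGCAAAT, motifs known to be bound by B lineage factors.
*Cd79a*, chr7:24897247-24897546, plus strand: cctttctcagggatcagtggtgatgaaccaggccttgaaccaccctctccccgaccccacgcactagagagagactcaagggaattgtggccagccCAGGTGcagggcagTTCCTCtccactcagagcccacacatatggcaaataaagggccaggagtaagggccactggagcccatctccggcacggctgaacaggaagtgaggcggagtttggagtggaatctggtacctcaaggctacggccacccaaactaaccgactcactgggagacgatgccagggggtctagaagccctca
*Cd22*, chr7:30878979-30879278, minus strand: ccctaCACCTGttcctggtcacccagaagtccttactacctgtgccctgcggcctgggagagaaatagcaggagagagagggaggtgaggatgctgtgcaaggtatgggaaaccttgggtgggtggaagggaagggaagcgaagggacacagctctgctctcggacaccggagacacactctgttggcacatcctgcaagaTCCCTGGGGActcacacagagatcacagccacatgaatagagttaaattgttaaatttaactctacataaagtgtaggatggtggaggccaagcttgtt
*Bank1*, chr3:136326017-136326316, minus strand: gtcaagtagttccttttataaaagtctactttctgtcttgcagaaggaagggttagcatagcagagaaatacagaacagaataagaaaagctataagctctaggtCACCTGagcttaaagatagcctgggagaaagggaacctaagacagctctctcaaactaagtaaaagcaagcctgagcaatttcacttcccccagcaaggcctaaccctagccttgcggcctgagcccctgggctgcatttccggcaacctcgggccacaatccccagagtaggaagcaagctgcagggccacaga
The windows of *Cd79a*, *Cd22*, *Cr2* and *Bank1* each held 1 match to the E-box, and 1 of the 3 windows of *Fcer2a* held 2 matches. Of 32851 promoters in the same table, 20.2% held an E-box match. An Ets/PU.1 core was found in *Cd79a* (1 match, 28.3% of all promoters) and an EBF core in *Cd22* (2 overlapping matches on opposite strands, 6.56% of all promoters). No octamer was found in the 7 windows, against 1.74% of all promoters. The *Cd22* window and the *Fcer2a* window with 2 matches lie inside the annotated genes and not at their annotated upstream ends. A match of letters is a description of the window and not a binding site.

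Barcodes were sorted into classes by marker genes that exclude the 9 genes. A barcode passed the B gate when at least 2 of 12 B lineage genes (among them *Pax5*, *Ebf1* and *Ly6d*) had a unique molecular identifier (UMI, 1 captured transcript molecule). It was B-gated when it also passed no T, natural killer, C1q, neutrophil, mast, dendritic or monocyte gate. C1q-gated barcodes carried at least 2 of *C1qa*, *C1qb* and *C1qc*, which in tissue mark macrophages, and passed no B, T or natural killer gate. After filtering, the steady-state library held 306 barcodes with a median of 9105 UMIs and the AngII library 4198 with a median of 1092, and they shared 0 barcode sequences. *Ptprc*, which encodes CD45, had a UMI in 93.8% of steady-state and 63.6% of AngII barcodes. B-gated barcodes numbered 49 (16.0%, interval 12.1 to 20.6) at steady state and 99 (2.36%, 1.92 to 2.86) on AngII, with median depths of 5591 and 2152 UMIs. A further 30 and 215 barcodes passed the B gate together with another gate. All 8 genes of a separate list of B cell genes had UMIs in B-gated barcodes of both libraries, with summed levels of 20132 CPM (UMIs of a gene per 1000000 UMIs of the class) against 727 CPM in C1q-gated barcodes at steady state and 68340 against 353 CPM on AngII. The AngII sum rests on 1 barcode that also passed the plasma cell gate, and without such barcodes it was 12607 CPM, against 16515 CPM at steady state. The 6 T cell gate genes summed to 0 and 12.9 CPM in B-gated barcodes, and the 3 C1q genes to 35.2 and 114 CPM. Since B-gated barcodes passed neither gate, these low sums follow from the class definition. Separate lists outside the gates summed to 14.1 and 46.5 CPM for 6 T cell genes in B-gated barcodes. For 6 macrophage genes the sums there were 334 and 703 CPM, against 17126 and 15466 CPM in C1q-gated barcodes. The reporter had a UMI in 0 of 49 B-gated barcodes at steady state and in 1 of 99 on AngII. A count of 0 was read as up to 3 barcodes, here 6.12%, and limits barcodes with a UMI, not cells that express a gene.

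All 9 genes were far higher in B-gated than in C1q-gated barcodes of both libraries. At steady state 9 of 9 had a ratio of at least 4, where 3.96% of 8329 genes did, and on AngII 9 of 9, where 3.77% of 11471 genes did. No member had a ratio of at most 0.25, which 11.9% and 9.01% of genes had. The median ratio of the 9 genes was 235 at steady state and 129 on AngII, beside medians of 0.910 and 0.934 over all genes. The counts of 0 in C1q-gated barcodes enter the steady-state median at 3 UMIs. Since the B gate selects B lineage cells, high levels of B cell genes there describe the class and do not test it.

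**Figure D1:**
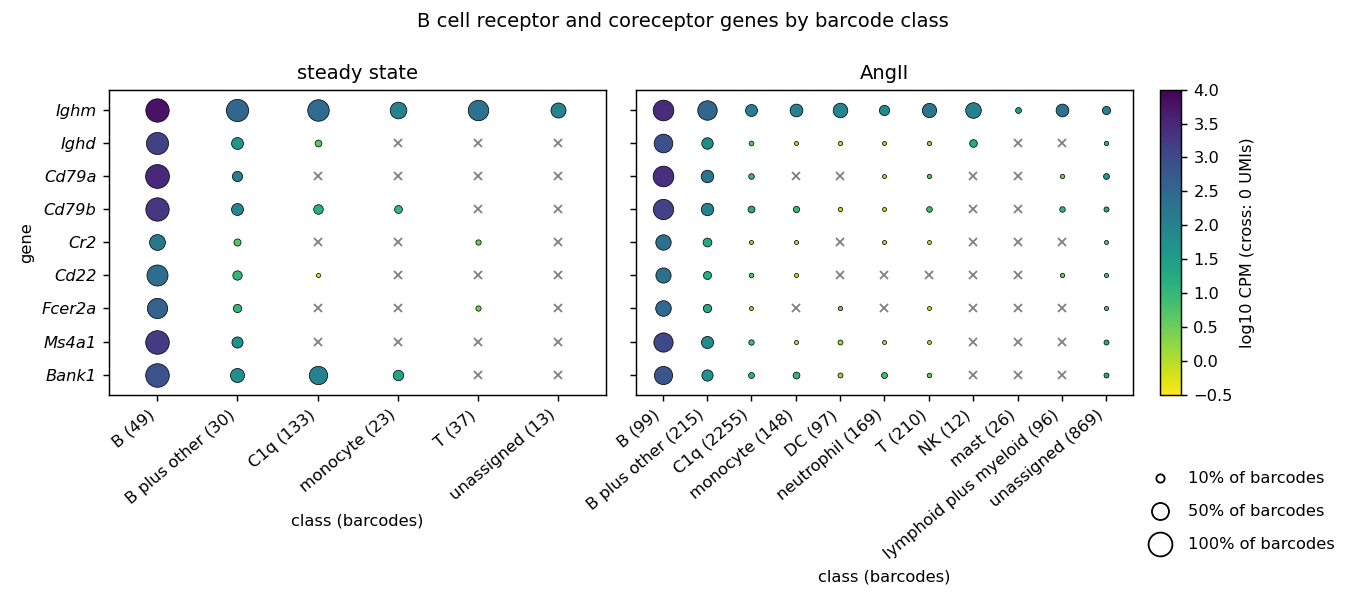
Level and detection of the 9 genes (rows) in each class of barcodes (columns, number of barcodes in brackets) of the steady-state and AngII libraries. Colour is log10 CPM, dot area grows with the percentage of barcodes with a UMI, and crosses mark 0 UMIs. The B column is filled for all 9 genes, while outside it *Ighm* is seen in every class shown and *Bank1* reaches 58.6% of C1q barcodes at steady state.

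*Ighm* (ENSMUSG00000076617.9, chr12:113418558-113422730, minus strand, GRCm38) encodes the constant region of the IgM heavy chain. In B-gated barcodes it had 1703 UMIs at steady state (5988 CPM, 5707 to 6279) and 1071 on AngII (2767 CPM, 2604 to 2938). It was found in 47 of 49 and 74 of 99 barcodes. The AngII level was 0.462 times the steady-state level (0.428 to 0.499). A single steady-state barcode carried 709 of the 1703 UMIs, or 41.6%, together with 654 UMIs of *Jchain*, the joining chain of secreted IgM, and it passed the plasma cell gate. Without the barcodes that passed this gate the ratio was 0.898 (0.823 to 0.980). On AngII 1 barcode outside this gate carried 196 of the 1071 UMIs, or 18.3%.

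*Ighd* (ENSMUSG00000104213.5, chr12:113406604-113416324, minus strand), the constant region of IgD, lies next to *Ighm* in the same locus. It had 380 UMIs at steady state (1336 CPM, 1205 to 1477) and 310 on AngII (801 CPM, 714 to 895). It was detected in 42 of 49 and 60 of 99 B-gated barcodes. The summed ratio of *Ighd* to *Ighm* UMIs was 0.223 (0.199 to 0.2495) at steady state and 0.289 (0.254 to 0.329) on AngII, and the first became 0.382 (0.339 to 0.431) once the plasma-gate barcode was left out. The order of the libraries in this ratio thus depended on 1 barcode.

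Both constant regions were often found in 1 barcode. *Ighm* and *Ighd* were found together in 41 of 49 steady-state barcodes, *Ighm* alone in 6 and *Ighd* alone in 1. On AngII both were found in 51 of 99, *Ighm* alone in 23, *Ighd* alone in 9 and neither in 16. Among barcodes with at least 5 UMIs of the pair, the median share of *Ighd* was 33.3% of 47 steady-state barcodes, with a range from 0 to 68.8%. In 54 AngII barcodes it was 26.1%, with a range from 0 to 75.0%. *Ighd* was the larger count in 3 barcodes of each library and was at 0 in 6 and 5.

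**Figure D2:**
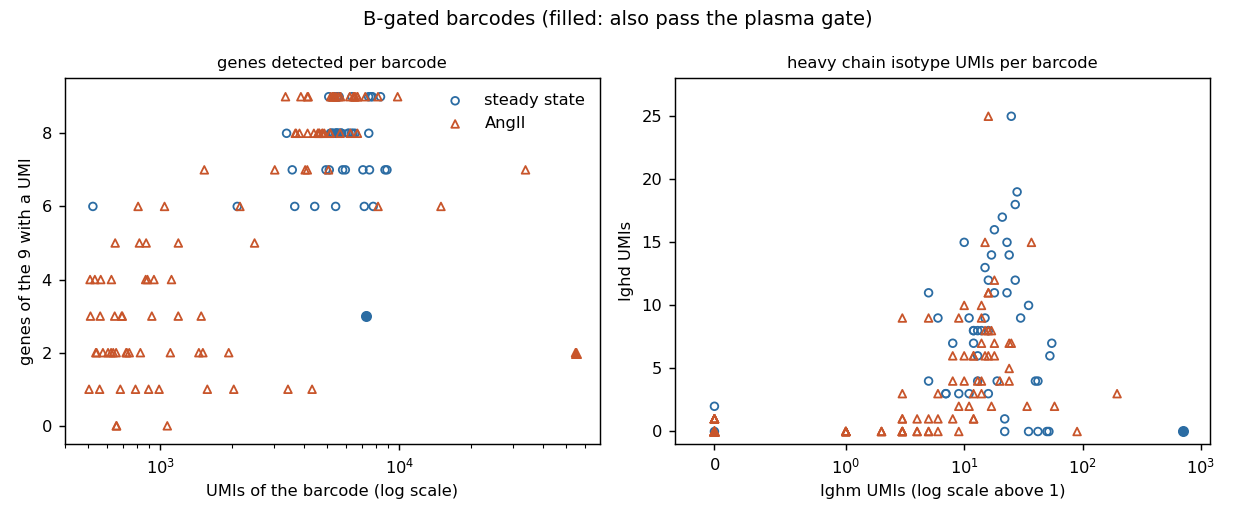
Each point is 1 B-gated barcode of the steady-state (circles) or AngII (triangles) library, and filled points also pass the plasma gate. On the left, the number of the 9 genes with a UMI is plotted against the UMIs of the barcode (log scale). On the right, *Ighd* UMIs are plotted against *Ighm* UMIs (log scale above 1), and the filled circle at 709 *Ighm* and 0 *Ighd* UMIs stands apart from the other steady-state barcodes.

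*Cd79a* (ENSMUSG00000003379.7, chr7:24897381-24902197, plus strand) and *Cd79b* (ENSMUSG00000040592.11, chr11:106311341-106314762, minus strand) encode the signalling chains Igα and Igβ. *Cd79a* had 906 UMIs at steady state (3185 CPM, 2981 to 3400) and 962 on AngII (2486 CPM, 2331 to 2648). It was detected in 49 of 49 and 74 of 99 B-gated barcodes. *Cd79b* had 561 UMIs (1972 CPM, 1813 to 2143) and 505 UMIs (1305 CPM, 1193 to 1424), in 47 of 49 and 71 of 99 barcodes. The AngII to steady-state ratio was 0.780 (0.712 to 0.855) for *Cd79a* and 0.662 (0.585 to 0.747) for *Cd79b*. Both chains were found together in 47 of 49 steady-state barcodes. On AngII they were together in 65 of 99, and among the 51 barcodes with at least 2000 UMIs in 48, with the other 3 holding neither chain.

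*Cr2* (ENSMUSG00000026616.16, chr1:195136811-195176716, minus strand) encodes the complement receptor of the B cell coreceptor complex, which is high on marginal zone B cells. It had 48 UMIs at steady state (169 CPM, 124 to 224) and 90 on AngII (233 CPM, 187 to 286), a ratio of 1.38 (0.960 to 1.999). It was detected in 21 of 49 and 40 of 99 B-gated barcodes. *Cr2* was the single member whose level was higher on AngII, although its interval held 1. Among barcodes with at least 2000 UMIs and outside the plasma gate it was detected in 44.7% of 47 steady-state barcodes (30.2 to 59.9) and 72.0% of 50 AngII barcodes (57.5 to 83.8), and the ratio was 1.68 (1.17 to 2.45).

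*Fcer2a* (ENSMUSG00000005540.10, chr8:3681737-3694175, minus strand) encodes CD23, the low-affinity IgE receptor found on follicular B cells. It had 116 UMIs at steady state (408 CPM, 337 to 489) and 113 on AngII (292 CPM, 241 to 351), with a ratio of 0.716 (0.548 to 0.936). Detection was 35 of 49 and 41 of 99. Among B-gated barcodes with at least 2000 UMIs, *Cr2* and *Fcer2a* were found together in 17 of 48 at steady state, *Cr2* alone in 4, *Fcer2a* alone in 17 and neither in 10. On AngII the same counts were 28, 8, 7 and 8 of 51.

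*Cd22* (ENSMUSG00000030577.14, chr7:30865402-30880342, minus strand) encodes a sialic acid-binding lectin that restrains receptor signalling. It had 73 UMIs at steady state (257 CPM, 201 to 323) and 77 on AngII (199 CPM, 157 to 249), and the ratio of 0.775 had an interval from 0.555 to 1.08. It was found in 38 of 49 and 39 of 99 barcodes. *Ms4a1* (ENSMUSG00000024673.9, chr19:11249675-11266241, minus strand) encodes CD20, a membrane protein linked to calcium flux after receptor binding. *Ms4a1* had 466 UMIs (1638 CPM, 1493 to 1794) and 403 UMIs (1041 CPM, 942 to 1148), in 48 of 49 and 64 of 99 barcodes, with a ratio of 0.636 (0.555 to 0.728). *Bank1* (ENSMUSG00000037922.13, chr3:136053363-136326066, minus strand) encodes a scaffold that links the receptor to kinases and calcium channels. It had 201 UMIs (707 CPM, 612 to 811) and 249 UMIs (643 CPM, 566 to 728), in 48 of 49 and 57 of 99 barcodes, and its ratio was 0.910 (0.753 to 1.10). Annotated genes on the opposite strand overlap *Ms4a1*, *Cd22* and *Bank1*.

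Between libraries the 9 genes in B-gated barcodes had a median ratio of 0.716, beside 0.865 over all genes. Of the 9 genes, 1 (*Ighm*) had a ratio of at most 0.5, where 8.96% of 4310 genes did, and 0 had a ratio of at least 2, where 5.20% did. That 1 *Ighm* call was absent without the plasma-gate barcodes. Depth and the make-up of the B gate moved with these ratios. On AngII 44 of the 99 B-gated barcodes held 7 to 9 of the genes, at a median of 5135 UMIs. Another 34 held 1 to 3, at a median of 733 UMIs, and passed the gate on a median of 2 genes, while 3 held none. At steady state 41 of 49 barcodes held 7 to 9 of the genes and the median was 8, against 5 on AngII. A single AngII barcode of 54597 UMIs held 14.1% of all B-gated UMIs, with 22050 of *Igkc*, 8799 of *Ighg2c* and 0 of *Ighm*, and passed the plasma gate.

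With both a minimum depth and the plasma-gate barcodes left out, the ratios of all members but *Cr2* and *Bank1* moved nearer to 1. The depth limit alone left *Ighm* at 0.476 times and *Bank1* at 0.969 times the steady-state level. Among B-gated barcodes with at least 2000 UMIs and outside the plasma gate (47 at a median of 5591 UMIs, 50 at 5091), *Ighm* stood at 3593 CPM (3373 to 3824) at steady state and 3392 CPM (3184 to 3610) on AngII. *Cd79a* was at 3264 CPM and 3138 CPM, *Cd22* at 260 and 251 CPM, *Fcer2a* at 412 and 364 CPM, and *Bank1* at 723 and 810 CPM, with overlapping intervals for each gene. *Cd79b* was at 2028 CPM (1864 to 2203) against 1596 CPM (1455 to 1748), *Ms4a1* at 1670 CPM (1521 to 1830) against 1301 CPM (1173 to 1439), and *Ighd* at 1367 CPM (1232 to 1511) against 1009 CPM (897 to 1132). The intervals of these 3 genes did not overlap, and *Cr2* at 174 CPM (128 to 230) and 292 CPM (233 to 361) was apart in the other direction. In the AngII set 1 barcode of 33712 UMIs held 196 of the 988 *Ighm* UMIs and 3 *Ighd* UMIs. Levels in this set without that barcode were not computed, so the overlap for *Ighm* and the gap for *Ighd* can depend on it. This depth limit and the removal of plasma-gate barcodes were chosen after seeing the data.

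**Figure D3:**
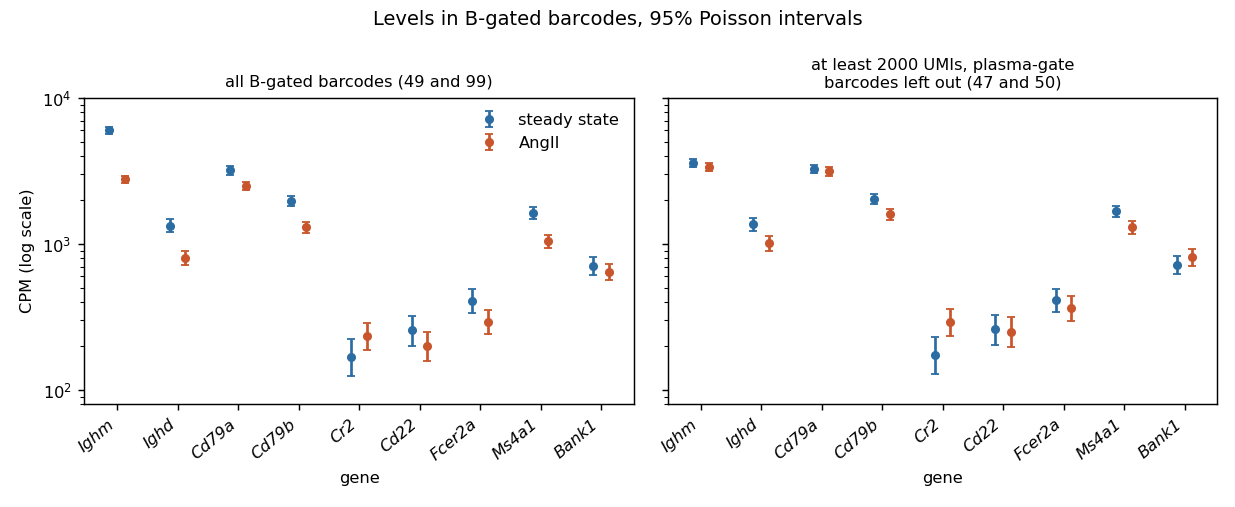
CPM (log scale) of the 9 genes in B-gated barcodes at steady state and on AngII, with 95% Poisson intervals, for all B-gated barcodes (left, 49 and 99) and for those with at least 2000 UMIs outside the plasma gate (right, 47 and 50). *Ighm* stands at 5988 and 2767 CPM on the left and at 3593 and 3392 CPM on the right, while *Cr2* is higher on AngII in both panels.

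Outside the B gate *Ighm* stood in another proportion to *Cd79a* than in B-gated barcodes. At steady state *Ighm* was found in 108 of 133 C1q-gated barcodes (81.2%), with 476 UMIs (276 CPM, 252 to 302), and 76 of them held 3 or more UMIs. It was also found in 27 of 37 T-gated barcodes, with 64 UMIs (201 CPM, 155 to 257). Neither class held a single *Cd79a* or *Ms4a1* UMI, which, at 3 barcodes for a count of 0, limits barcodes with such a UMI to 2.26% and 8.11%. Both classes leave out barcodes that passed the B gate. The C1q-gated barcodes had 6 UMIs of *Igkc*, the kappa light chain, beside 4316 in B-gated barcodes, of which 3180 lay outside the plasma gate. Per *Cd79a* UMI, *Ighm* stood at 1.10 (1.003 to 1.20) in B-gated barcodes outside the plasma gate and at no less than 159 in C1q-gated barcodes. On AngII the same quantity was 1.12 in B-gated, 11.9 (9.68 to 14.8) in C1q-gated and 35.6 (15.0 to 111) in T-gated barcodes. The source of these *Ighm* UMIs was not tested.

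At full depth, and among the classes outside the B gate that were given levels, *Bank1* was seen most often in the C1q-gated barcodes of the steady state. It was detected in 78 of 133 (58.6%, 49.8 to 67.1) with 176 UMIs (102 CPM, 87.5 to 118), and 25 barcodes held 3 or more. Its level in B-gated barcodes was 6.93 times higher (5.63 to 8.53). T-gated barcodes held 0 *Bank1* UMIs in 37 barcodes at a median of 8284 UMIs, against 10450 in C1q-gated barcodes, and 4 of 23 monocyte-gated barcodes held 7. On AngII *Bank1* was found in 90 of 2255 C1q-gated barcodes (12.8 CPM, 10.6 to 15.2), which is 0.125 times the steady-state level (0.0984 to 0.158). At 1000 UMIs per barcode the detection in C1q-gated barcodes was 7.63% at steady state and 1.84% on AngII. At that depth it was 8.70% in monocyte-gated barcodes (2 of 23) and 0% in T-gated barcodes of the steady state. Within the C1q-gated class, in a split made after seeing the data, barcodes with a UMI of *Lyve1*, a marker of resident macrophages, held 117 CPM of *Bank1* and those without 60.5 CPM at steady state (ratio 1.94, 1.29 to 3.02). The values on AngII were 24.7 and 10.1 CPM (ratio 2.44, 1.64 to 3.58), at median depths of 2043 and 1094 UMIs. *Ighm* differed in the same direction, with ratios of 2.09 (1.62 to 2.73) at steady state and 1.29 (1.12 to 1.49) on AngII, while *Cd79b* had 2.57 (0.767 to 13.5) and 0.489 (0.278 to 0.808).

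*Cd79b* was seen in 19 of 133 C1q-gated barcodes at steady state (13.9 CPM, 8.91 to 20.7) and 139 of 2255 on AngII (18.1 CPM, 15.5 to 21.0), levels whose ratio of 1.30 had an interval from 0.845 to 2.08. *Ighd* was in 8 and 39 barcodes (4.63 and 4.28 CPM). *Cd79a* had 0 UMIs at steady state and 98 in 75 of 2255 barcodes on AngII (10.2 CPM, 8.31 to 12.5), at least 5.89-fold higher in all C1q-gated barcodes. *Ms4a1* had 0 and 77 UMIs (8.05 CPM on AngII, 6.35 to 10.1), at least 4.63-fold higher. Barcodes that passed the B gate were outside this class, so the counts of 0, and with them these bounds, depend in part on that gate. These bounds moved with depth, and in barcodes with at least 2000 UMIs (129 and 708) *Cd79a* had 0 and 18 UMIs (2.23 CPM on AngII) and *Ms4a1* 0 and 27 (3.35 CPM), which lowered the bounds to 1.28 and 1.92. *Cd22* had 1 and 42 UMIs, and *Cr2* and *Fcer2a* each had 0 and 15. In C1q-gated barcodes of the AngII library *Ighd* stood at 0.418 (0.283 to 0.608) per *Cd79a* UMI, beside 0.322 (0.283 to 0.367) in B-gated barcodes, and the intervals overlapped. *Ms4a1* was at 0.786 (0.575 to 1.07) against 0.419 (0.372 to 0.471), *Cd79b* at 1.77 (1.37 to 2.29) against 0.525 (0.470 to 0.585) and *Bank1* at 1.24 (0.946 to 1.64) against 0.259 (0.224 to 0.298). Depth moved these proportions too, and C1q-gated barcodes with at least 2000 UMIs held 10 UMIs of *Ighd*, 120 of *Cd79b* and 913 of *Ighm* beside the 18 of *Cd79a*.

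When C1q-positive barcodes were counted whatever other gate they passed, 133 of 148 at steady state (89.9%, 83.8 to 94.2) and 881 of 2493 on AngII (35.3%, 33.5 to 37.2) held a UMI of the 9 genes. T-gated barcodes held one in 28 of 37 and 78 of 210. The C1q-positive barcodes were then split by the B gate. Since this gate selects barcodes with B lineage genes detected together, the split describes the gate and does not test it. At steady state 13 of the 148 passed the B gate, 6 of them held 4 or more of the genes, and these 6 carried 91.0% of the UMIs of the 9 genes in the 13 barcodes. On AngII 152 of 2493 passed it and 35 held 4 or more, with 78.15% of such UMIs in the 152. Of all C1q-positive barcodes, those with 4 or more of the genes carried 31.7% of such UMIs at steady state and 37.4% on AngII. Of the barcodes that did not pass, 1 of 135 and 13 of 2341 held 4 or more. *Cd79a*, *Cd79b* and *Ms4a1* were found together in 5 and 20 barcodes of the first kind and in 0 and 0 of the second. On AngII the 35 barcodes had a median of 5680 UMIs, against 1994 for the others that passed both gates, and at steady state the medians were 16036 and 13649. Whether they hold 2 cells or free RNA was not tested, and doublets were not removed.

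Signalling genes downstream of the receptor were followed in a list of 37 genes that held 8 kinases, 12 adaptors, 8 coreceptors and 9 inhibitors. Between B-gated and C1q-gated barcodes 5 of the 36 tested were at least 4 times higher at steady state and 4 at most 0.25 times, beside 3.96% and 11.9% of all genes. On AngII the counts were 5 and 3 of 36, beside 3.77% and 9.01%. The median ratio of the list was 1.90 at steady state and 1.09 on AngII, so most of these genes had levels of the same order in both classes. Against T-gated barcodes the median ratio of the list was 6.34 at steady state and 3.06 on AngII, beside 1.03 and 0.780 over all genes.

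*Blk*, a Src-family kinase of B cells, had 38 UMIs in B-gated barcodes at steady state (134 CPM) and 0 in C1q-gated barcodes, at least 76.9-fold higher, and 134 CPM against 0.314 CPM on AngII. The other 7 kinases, among them *Lyn*, *Syk* and *Btk*, had ratios between 0.634 and 2.72 at steady state and between 0.492 and 2.18 on AngII. Of the adaptors, *Malt1*, a paracaspase on the way to NF-κB, was 6.13 times higher at steady state and 3.40 times on AngII. *Blnk*, the linker below *Syk*, passed the threshold on AngII with 4.47 and had 2.27 at steady state, and *Rasgrp3* had 20.4 on AngII and 3.19 at steady state.

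Among coreceptors *Cd37*, a tetraspanin, was 8.30 times higher at steady state and 8.07 times on AngII. *Cd81*, a tetraspanin of the *Cr2* complex, was lower in B-gated barcodes, with 148 against 829 CPM at steady state (ratio 0.178, 0.128 to 0.242) and 160 against 283 CPM on AngII (0.567, 0.433 to 0.729). The inhibitors split in both directions. *Siglecg*, a lectin related to *Cd22*, was 322 times higher (86.9 to 2690) at steady state and 32.6 times (21.7 to 49.4) on AngII. *Fcgr2b*, the inhibitory Fc receptor, was at 0.155 (0.0998 to 0.230) and 0.137 (0.0984 to 0.185), while *Pirb* was at 0.233 and 0.128. *Cd72* reached 4.68 at steady state and 0.957 on AngII. *Lair1* had 0 UMIs in B-gated barcodes at steady state, and *Cd5*, a marker of B-1a cells, had 0 UMIs in B-gated barcodes of either library.

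**Figure D4:**
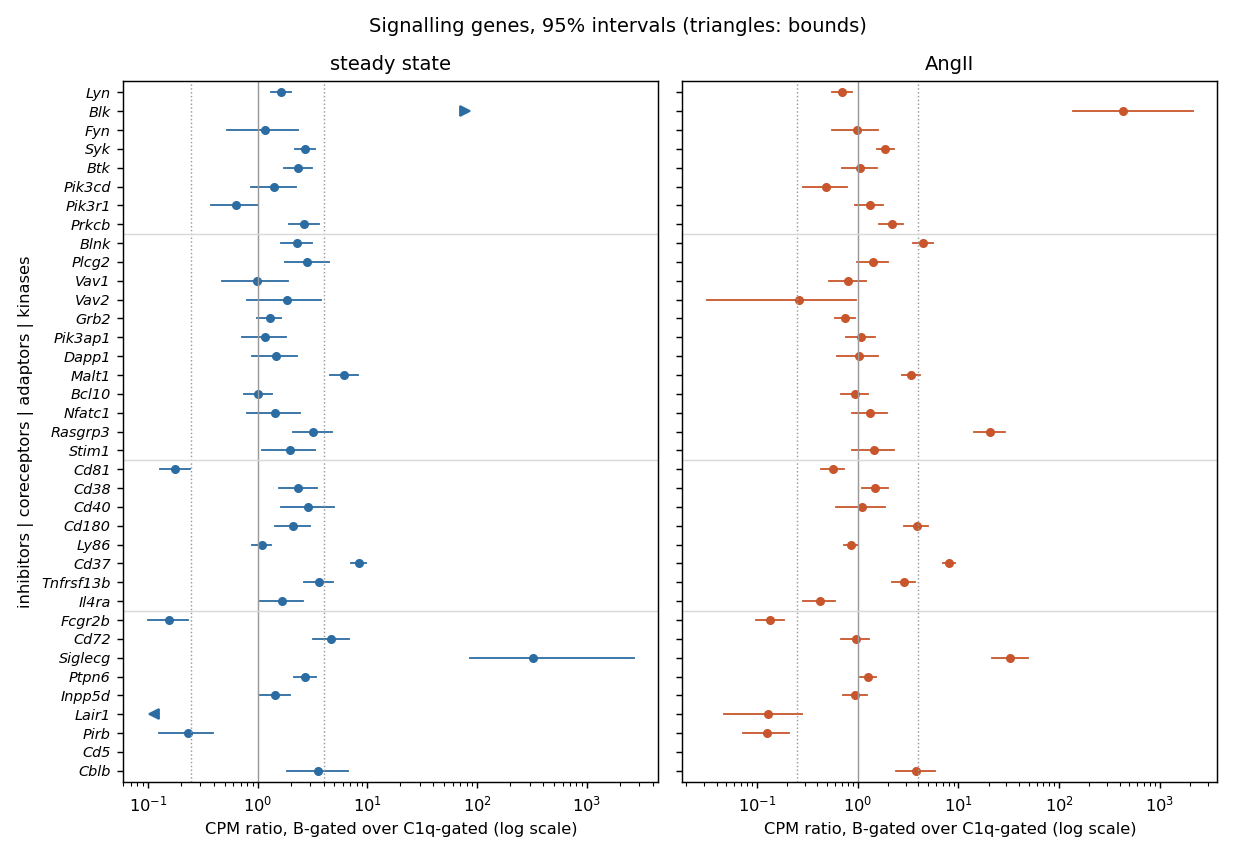
CPM ratio of B-gated over C1q-gated barcodes (log scale) for 37 signalling genes in 4 role groups, at steady state (left) and on AngII (right). Bars are 95% intervals, triangles are bounds from a count of 0, dotted lines mark ratios of 0.25 and 4, and *Cd5* was too low to plot. *Blk*, *Cd37* and *Siglecg* lie past 4 in both libraries and *Fcgr2b*, *Lair1* and *Pirb* below 0.25.

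Between libraries 0 of 34 tested signalling genes had a ratio of at least 2 in B-gated barcodes and 2 had a ratio of at most 0.5, beside 5.20% and 8.96% of all genes. *Btk*, the Tec-family kinase, stood at 225 CPM at steady state and 72.3 CPM on AngII (ratio 0.322, 0.199 to 0.509). *Siglecg* stood at 373 and 150 CPM (0.402, 0.287 to 0.559). The median ratio of the list was 0.831, beside 0.865 over all genes.

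Over 17 combinations of class and library with at least 10 barcodes, light chain genes were among those whose log2 level followed the mean of the 9 genes most closely. *Iglc2* had a Pearson correlation of 0.994, *Iglc3* of 0.993 and *Iglc1* of 0.990, and they encode constant regions of the lambda light chain, whose near-identical sequences can share reads. *Gm30211* had 0.981, on 44 UMIs in B-gated barcodes at steady state and 50 on AngII. *Iglc2* had 1319 and 1504 CPM there. For the members themselves the correlation with their own mean ran from 0.929 for *Bank1* and 0.947 for *Ighm* to 0.993 for *Ms4a1*. The points share libraries and depths, and these values are a description.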

How the data were processed

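Single-cell transcripts of CD45-positive adventitial cells were counted in 2 libraries, 1 per condition. Reads were mapped by the authors to GRCm38.p6 plus eYFP with Cell Ranger 3.1.0, and the deposited values are raw UMI counts of each gene in each called barcode.

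With the limits that the study gives, a barcode needed between 300 and 6500 genes and no more than 5% of its UMIs from mitochondrial genes. The deposited libraries held 346 and 4419 barcodes, the numbers of cells analysed in the paper. This filter kept 306 and 4198 of them, a smaller set than that of the study. A gate needed at least 2 detected genes of its marker list. B-gated barcodes passed no T, natural killer, C1q, neutrophil, mast, dendritic or monocyte gate, but could pass the plasma or plasmacytoid dendritic cell gate. Barcodes that failed the B gate were classed in a fixed order, with T before natural killer and C1q before the other myeloid gates. A C1q-gated barcode could thus also pass another myeloid gate. Lymphoid plus myeloid barcodes formed their own class. Levels are given for classes with at least 10 barcodes. Barcodes that passed the plasma cell gate (*Jchain*, *Mzb1*, *Tnfrsf17*, *Derl3*, *Eaf2*) stayed in the B gate in the main values. CPM is the summed UMIs of a gene over all UMIs of the class. Intervals have a level of 95%, exact Poisson for CPM and ratios, and Clopper-Pearson for shares. A count of 0 was taken at 3 UMIs, or 3 barcodes for a share, as a bound. Genes entered ratios with at least 20 UMIs in both groups together. No test was run, as each condition had 1 library.

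The genes described are the 9 members, the signalling list, and the 5 genes with at least 50 UMIs outside the gates that correlate best with the members in log2(CPM + 10), and 2 genes, 1 of each of the last sets, are not reported here. The signalling list lost that gene after the results had been seen, and its counts and medians were computed over the remaining 37 genes. The members and lists were chosen with earlier results of these data known. The alternatives changed the barcode filter, the gates, the depth, the CPM total and single barcodes. Coordinates follow the M21 GENCODE annotation of GRCm38, while the authors counted on M24, and the version of the *Cr2* identifier differs between them. Ratios, gates and thinning were tested on simulated data. Computation used Python 3.11.15 with pandas 2.3.3, SciPy 1.17.1 and NumPy 2.4.6, and plots Matplotlib 3.10.9.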

Additional observations from a re-analysis of the deposited data

Results flagged for a closer look

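*Cd79a* and *Ms4a1* moved in opposite directions between the libraries in the B-gated and the C1q-gated barcodes. In B-gated barcodes the AngII to steady-state ratio was 0.780 for *Cd79a* and 0.636 for *Ms4a1*. In C1q-gated barcodes, which held 0 UMIs of either gene at steady state, the lower bound of the ratio was 5.89 for *Cd79a* and 4.63 for *Ms4a1*. This class leaves out C1q-positive barcodes that passed the B gate. Of those, 5 at steady state and 20 on AngII held *Cd79a*, *Cd79b* and *Ms4a1* together, so the counts of 0 depend in part on the gate. With at least 2000 UMIs the bounds were 1.28 and 1.92, with at least 1000 genes 1.88 and 2.37, and after thinning to 1000 UMIs 1.17 and 0.871, where a bound under 1 gives no direction. The difference was not tested, as each condition had 1 library. B-gated barcodes were 16.0% of the steady-state and 2.36% of the AngII barcodes, and the C1q-gated barcodes numbered 133 and 2255.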

How the results depend on the processing

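Each condition had 1 library, so no library could be left out. No paired analysis was possible because the result came from no test and each condition had 1 library. In total 12 other settings and 3 more chosen after seeing the data were run. A B-gated over C1q-gated ratio of at least 4 was reached by all 9 genes in both libraries under every setting run for it but 3. At steady state it was reached by 8 genes with mixed barcodes counted in and by 6 after thinning to 1000 or 500 UMIs. On AngII it was reached by 7 at 500 UMIs. Here and below, genes with fewer than 20 UMIs in both groups together did not enter counts of ratios. A gene missing after thinning can thus be untested and not below 4. Thinned to 1000 UMIs, *Cd22*, *Cr2* and *Fcer2a* stood at 229, 104 and 375 CPM in B-gated barcodes at steady state. Each had 0 UMIs in C1q-gated barcodes of that library and depth.

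The sum of the 9 genes in B-gated barcodes, 15660 CPM at steady state and 9766 CPM on AngII, depended most on mixed barcodes. It was 5688 and 2080 CPM when barcodes that pass the B and another gate were counted in, 13819 and 12387 CPM with a gate of 1 gene, and 14282 and 9126 CPM with a gate of 3. Without the plasma-gate barcodes it was 13502 and 11325 CPM, and with at least 2000 UMIs as well 13491 and 12152 CPM. Leaving out the barcode with the most UMIs of the 9 genes gave 13502 CPM at steady state, and leaving out B-gated barcodes with a C1q UMI gave 16375 CPM. Thinning to 1000 UMIs gave 14625 and 10349 CPM. On AngII it was 10230 CPM with at least 1000 genes, 10278 CPM with at least 2000 UMIs, 10165 and 10395 CPM with the even- and odd-numbered B gate genes, 10891 CPM with immunoglobulin genes out of the total and 8647 CPM at 500 UMIs.

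The count of members with an AngII ratio of at most 0.5, 1 in the main values, was 0 without plasma-gate barcodes, with at least 2000 UMIs as well, without the barcode with the most UMIs of each gene, with a gate of 1 gene and with immunoglobulin genes out of the total. It was 8 with mixed barcodes counted in and 3 at 500 UMIs. A ratio of at least 2 was reached by 1 member at 1000 UMIs. The *Cd79a* ratio crossed to 1.01 with a gate of 1 gene. *Ighd* to *Ighm* at steady state was 0.382 without plasma-gate barcodes, 0.380 with at least 2000 UMIs as well, 0.389 with a gate of 1 gene, 0.382 without the barcode with the most UMIs of the pair and 0.286 at 500 UMIs. On AngII it was 0.251 with mixed barcodes, 0.351 without its top barcode and 0.371 at 1000 UMIs.

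C1q-positive barcodes with a UMI of the 9 genes were 41.1% and 22.7% at 1000 UMIs and 19.6% and 13.6% at 500 UMIs. On AngII they were 56.6% with at least 1000 genes, 57.4% with at least 2000 UMIs (with or without plasma-gate barcodes) and 40.5% with a gate of 3 genes. The share of B-gated barcodes was 25.8% at steady state and 7.48% on AngII with mixed barcodes. On AngII it was 1.501% without C1q UMIs, 3.54% with at least 1000 genes, 3.84% with at least 2000 UMIs, 3.76% without plasma-gate barcodes as well, 1.501% and 1.67% with the even and odd gate genes, 1.22% with a gate of 1 gene and 3.103% gated after thinning to 1000 UMIs.

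Signalling genes at least 4 times higher in B-gated barcodes numbered 2 and 3 at 1000 UMIs, 1 and 2 at 500 UMIs, 2 at steady state with mixed barcodes, and 8 on AngII with at least 2000 UMIs and no plasma-gate barcodes. Those at most 0.25 times numbered 2 and 1 at 1000 UMIs, 1 at steady state at 500 UMIs, and 1 and 0 with mixed barcodes. Those with an AngII ratio of at most 0.5 numbered 5 without C1q UMIs, 1 with at least 2000 UMIs and no plasma-gate barcodes, and 0 at 500 UMIs. Genes entered these ratios with at least 20 UMIs in both groups together, so thinning can leave fewer genes to count. The cause of these shifts was not tested.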
